A study of Mus musculus with 3 samples.

Results

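The genes described here encode the nuclear subunits of the mitochondrial respiratory chain and of ATP synthase, with their close namesakes. They were chosen by symbol, as every gene named Atp5, Cox4 to Cox8, Uqcr, Sdha to Sdhd (with the Sdhaf names), or Ndufa, Ndufb, Ndufc, Ndufs or Ndufv, without antisense and -ps names. This gave 101 of the 36593 genes listed over all files, and 8 -ps names were left out. Of the 101 genes, 36 encode subunits of complex I, 4 of complex II, 8 of complex III, 20 of complex IV and 17 of complex V. A further 8 encode assembly factors of complex I and 4 those of complex II. The last 4 (Cox6c2, Ndufa11b, Ndufb4c and Ndufs6b) are processed pseudogenes in the annotation and may share reads with their parent genes.

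Complexes I to IV pass electrons from NADH or succinate to oxygen, and complexes I, III and IV pump protons across the inner mitochondrial membrane. Complex V, the ATP synthase, uses the proton gradient to make ATP. Complexes I, III, IV and V also hold subunits encoded in mitochondrial DNA, so their assembly draws on both genomes, whereas complex II is encoded in the nucleus alone. Several small subunits of complex IV (cytochrome c oxidase) have tissue-specific isoforms. COX6B2, COX7B2 and COX8C are known from testis, COX4I2 and NDUFA4L2 from oxygen-sensing cells and smooth muscle, and COX6A2, COX7A1 and COX8B from heart and skeletal muscle. Germ cells change their metabolism during spermatogenesis: spermatogonia in the basal compartment are exposed to blood-borne glucose, and spermatocytes behind the blood-testis barrier depend more on respiration.

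UMI counts of single cells from adult mouse testis were measured by droplet sequencing in 3 libraries, each pooled from 3 mice on a C57BL/6 background. The cKO mice were Amh-cre; Scf fl/fl and the control mice Scf fl/fl. Both groups were 6 weeks old, and haploid cells were depleted from their libraries by flow cytometry. Amh-cre is active in Sertoli cells and removes Scf (Kitl in the files), the ligand of the c-Kit receptor. The Tomato-negative library came from mice with the genotype Ddx4-creER; R26tdTomato, aged 8 weeks and 4 weeks after tamoxifen, whose Tomato+ germ cells had been depleted. Both floxed Scf alleles are thus present in control and cKO mice, and the Tomato-negative mice carry neither Amh-cre nor the floxed allele by their labels. With 1 library per condition, differences between cKO and control compare 2 libraries, have no replicate check and were not tested.

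The Tomato-negative file also held all 6264 control cells and 149 cells with cKO barcodes, and only its other 7626 cells were taken from it. The files held 90453018 UMIs in the control, 68602272 in the cKO and 287753612 in the merged table. After limits on genes and mitochondrial counts, 7018 cKO, 5976 control and 5087 Tomato-negative cells remained. Doublet calls on the cells before these limits marked 4.62% of the cKO, 3.42% of the control and 4.31% of the Tomato-negative cells, and cells so marked were left in. Other barcodes shared between libraries numbered 9 to 15. Levels are CPM, the UMIs of a gene scaled to a fixed total over all UMIs of a class, and intervals are exact 95% Poisson intervals for CPM and exact 95% conditional binomial intervals for ratios. They cover counting error only. Each UMI stands for 1 molecule read at its 3′ end, so CPM were not divided by gene length, and capture may still differ between genes.

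Classes were named from marker genes and carry the suffix -like. The median depth ran between 3481 and 73624 UMIs per cell over the germ cell classes of the Tomato-negative library and between 4552 and 47015 in the control. A Sertoli-like class of 636 cells was found in the Tomato-negative library alone. The deletion of Scf in Sertoli cells could therefore not be checked. Kitl itself stood at 173 CPM in cKO Leydig-like, 256 in cKO vascular smooth muscle-like and 314 in cKO Tcf21 stromal-like cells, against 247 CPM in control vascular smooth muscle-like and 350 in control Tcf21 stromal-like cells, and at 125 CPM in Tomato-negative Sertoli-like cells. Transcripts of haploid cells were present outside those cells: their summed level was 322 CPM in Tomato-negative and 201 CPM in control undifferentiated spermatogonia-like cells, and between 302 and 825 CPM in control somatic classes, whereas cKO spermatogonial and somatic classes held between 4.92 and 45.9 CPM.

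As a whole, the 101 genes held their smallest part of the transcriptome in elongating spermatid-like cells of both libraries, with an earlier dip in early meiotic-like cells. In Tomato-negative cells their summed level was 27947 CPM in undifferentiated spermatogonia-like, 30458 in differentiating spermatogonia-like, 25096 in early meiotic-like, 31577 in pachytene spermatocyte-like, 25298 in round spermatid-like and 11948 in elongating spermatid-like cells. Control cells had 25159, 27552, 19463, 27428, 20138 and 13078 CPM in the same order. The 13 mitochondrially encoded subunits had another course. They summed to 14917, 13139, 14510, 2168, 1339 and 7531 CPM in the Tomato-negative library and to 14254, 12630, 14988, 2573, 849 and 251 CPM in the control. In pachytene spermatocyte-like cells of both libraries the mitochondrially encoded level was thus far below that of early meiotic-like cells, while the nuclear sum was higher than there.

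Between differentiating spermatogonia-like and pachytene spermatocyte-like cells many members changed, in both directions. In pachytene spermatocyte-like cells of the Tomato-negative library, 25 of 96 members with at least 20 counts were at least 1.5-fold higher, where 28.8% of all genes were, and 39 were at least 1.5-fold lower, where 59.1% of all genes were. In the control 22 of 96 were higher (32.5% of all genes) and 36 lower (53.9% of all genes). The median log2 ratio of members was -0.29 in the Tomato-negative library and -0.25 in the control, beside -1.26 and -0.87 over all genes. A second scaling, with the median ratio of genes with at least 10 counts in both classes set to 1, gave another split. It sets a CPM ratio of 0.489 in the Tomato-negative library and 0.519 in the control to no change. Under it 53 members were higher and 22 lower in the Tomato-negative library, and 52 higher and 19 lower in the control, so that a member with a CPM ratio between these values and 1 is lower in CPM and not lower relative to the median gene. With a limit of 3500 detected genes, which left 34 Tomato-negative and no control cells of the pachytene class, 13 members were higher in the Tomato-negative library.

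**Figure D1:**
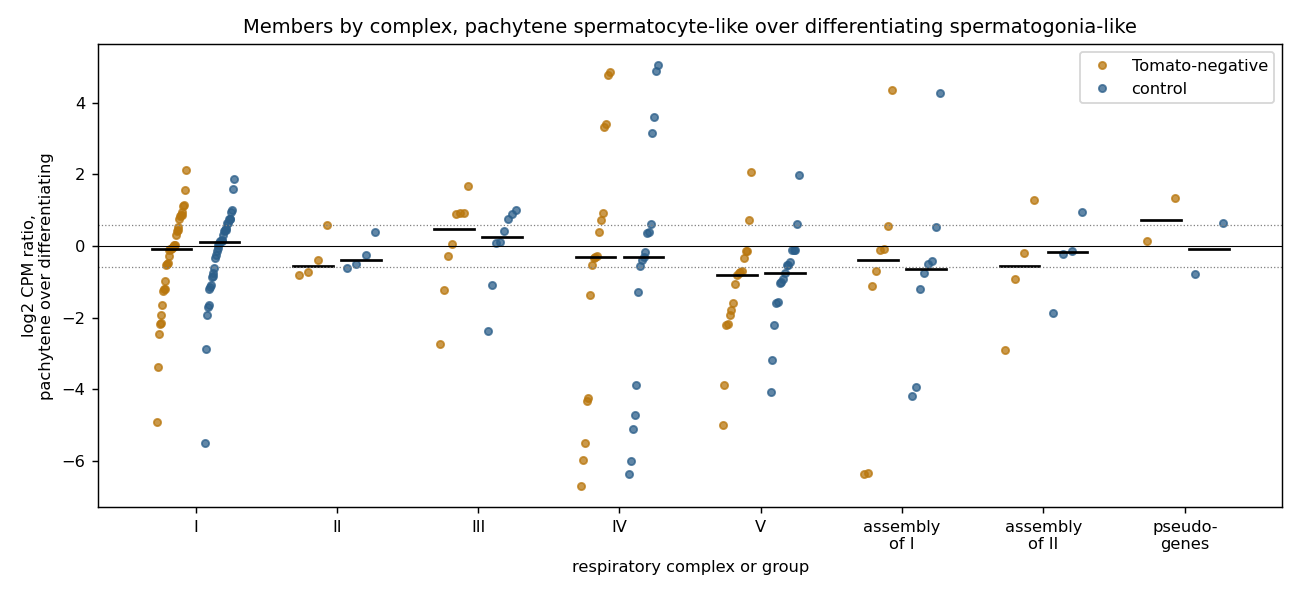
The log2 ratio of CPM in pachytene spermatocyte-like over differentiating spermatogonia-like cells is plotted for each member (points) by complex, for the Tomato-negative and the control library, with the median of each complex as a bar and dotted lines at 1.5-fold in either direction. Complex IV spans the widest range in both libraries, and the median of complex V is the lowest of the complexes at -0.82 and -0.74.

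Complex I, which oxidises NADH, split evenly. Of its 36 subunits, 9 were higher and 11 lower in Tomato-negative pachytene spermatocyte-like cells, and 9 higher and 12 lower in the control, with medians of -0.08 and 0.10. With the median ratio set to 1 these counts were 22 and 7, and 24 and 5. Among the core subunits, Ndufs8, which carries iron-sulfur clusters, had 44.5 CPM in Tomato-negative pachytene spermatocyte-like cells, against 244 CPM in differentiating spermatogonia-like cells, and 65.6 against 248 CPM in the control. Among accessory subunits, Ndufa12 was 4.35-fold (interval 4.08 to 4.64) and 3.64-fold (3.40 to 3.90) higher and Ndufc1 2.94-fold and 3.0-fold higher, whereas Ndufa11 and Ndufa13 were lower, at ratios of 0.223 and 0.224 in the Tomato-negative library and 0.309 and 0.319 in the control. Ndufb9, the most abundant complex I member in spermatogonia-like cells, fell to 343 CPM in Tomato-negative and 562 CPM in control pachytene spermatocyte-like cells, against 1067 and 1303 CPM in differentiating spermatogonia-like cells.

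Complex II (succinate dehydrogenase) had 1 of 4 subunits higher and 2 lower in the Tomato-negative library and 0 higher and 1 lower in the control, and 2 higher and 0 lower in each with the median ratio set to 1. Sdhb, its iron-sulfur subunit, had 167 CPM in pachytene spermatocyte-like and 218 CPM in differentiating spermatogonia-like cells of the Tomato-negative library, and 159 and 245 CPM in the control. Sdhd, a membrane anchor, reached a ratio of 1.5 and 1.31, and then dropped in round spermatid-like cells to 22.0 and 12.6 CPM, against 86.8 and 51.4 CPM in pachytene spermatocyte-like cells. In complex III (cytochrome bc1), 4 of 8 subunits were higher and 2 lower in the Tomato-negative library, and 3 and 2 in the control. With the median ratio set to 1 the counts of complex III were 6 and 1 in each library. Uqcr10, Uqcrc1 and Uqcrfs1, the last of which is the Rieske iron-sulfur protein, were 1.68-fold to 1.99-fold higher in both libraries. Uqcr11 and Uqcrh were lower in both, at ratios of 0.150 and 0.423 in the Tomato-negative library and 0.193 and 0.472 in the control. Uqcrq, a small subunit, differed between the libraries: it was 3.16-fold higher (1719 against 544 CPM) in Tomato-negative cells and 1.33-fold higher (691 against 520 CPM) in control cells.

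Complex IV held the largest changes in both directions, and they lay in pairs of isoforms. Of its 17 members with counts, 6 were higher and 6 lower in the Tomato-negative library, and 5 and 6 in the control. With the median ratio set to 1 these counts were 10 and 5, and 9 and 5. Its summed level was 12586 CPM in Tomato-negative pachytene spermatocyte-like cells, against 8454 CPM in differentiating spermatogonia-like cells, and 10134 against 7503 CPM in the control. Cox8c, the testis isoform of subunit VIII (chromosome 12, 102899316 to 102900526, GRCm38), had 118, 135, 230, 3901, 2244 and 248 CPM along the 6 germ cell classes of the Tomato-negative library and 88.7, 89.2, 163, 2953, 1644 and 603 CPM in the control, from undifferentiated spermatogonia-like to elongating spermatid-like cells. Its level peaked in pachytene spermatocyte-like cells in both libraries and was 28.9-fold (27.8 to 30.2) and 33.1-fold (31.4 to 35.0) that of differentiating spermatogonia-like cells. Cox8a, the isoform of other tissues, had 1165, 707, 111, 35.1, 33.7 and 168 CPM and 1017, 637, 80.7, 24.1, 18.3 and 17.2 CPM. Cox8c thus made up 99.11% of all Cox8 counts in Tomato-negative pachytene spermatocyte-like cells and 99.19% in control ones, beside 9.17% and 8.03% in undifferentiated spermatogonia-like cells.

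The same exchange was seen in subunits VIb and VIIb. Cox6b2 had 63.5, 118, 187, 1183, 1082 and 181 CPM in the Tomato-negative library and 41.5, 82.8, 124, 1008, 870 and 544 CPM in the control. Cox6b1 had 536, 488, 149, 25.9, 50.2 and 81.3 CPM and 522, 448, 127, 30.7, 34.3 and 26.2 CPM. Cox6b2 supplied 97.86% and 97.05% of the Cox6b counts of pachytene spermatocyte-like cells, beside 10.59% and 7.36% in undifferentiated spermatogonia-like cells. Cox7b2 had 139, 97.5, 197, 1037, 761 and 57.9 CPM in the Tomato-negative library and 144, 90.5, 178, 806, 714 and 337 CPM in the control, and Cox7b 179, 66.3, 12.7, 1.04, 2.12 and 20.3 CPM and 156, 57.4, 11.8, 0.685, 1.70 and 2.51 CPM. Cox7b2 differed from the other testis isoforms in that it already gave 43.69% and 48.06% of the Cox7b counts in undifferentiated spermatogonia-like cells, 93.97% and 93.80% in early meiotic-like cells and 99.90% and 99.92% in pachytene spermatocyte-like cells. In early meiotic-like cells Cox6b2 stood at 55.68% and 49.37% and Cox8c at 67.55% and 66.94%.

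NDUFA4 and NDUFA4L2 were named for complex I and are found in complex IV. Ndufa4l2 (chromosome 10, 127514967 to 127517154) had 6.39, 7.91, 7.25, 215, 189 and 30.3 CPM in the Tomato-negative library and 5.14, 4.62, 5.64, 139, 203 and 97.1 CPM in the control. Ndufa4 had 349, 651, 351, 6.22, 14.4 and 105 CPM and 366, 558, 280, 16.1, 7.35 and 6.82 CPM. The ratio of pachytene spermatocyte-like to differentiating spermatogonia-like cells was 27.1 (22.9 to 32.4) and 30 (23.6 to 38.7) for Ndufa4l2, and 0.00956 and 0.0289 for Ndufa4. Ndufa4l2 gave 97.19% and 89.57% of the pair's counts in pachytene spermatocyte-like cells, beside 1.80% and 1.38% in undifferentiated spermatogonia-like cells. Summed over the COX6B, COX7B and COX8 pairs, the testis isoforms made up 99% and 98.8% of counts in pachytene spermatocyte-like cells.

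**Figure D2:**
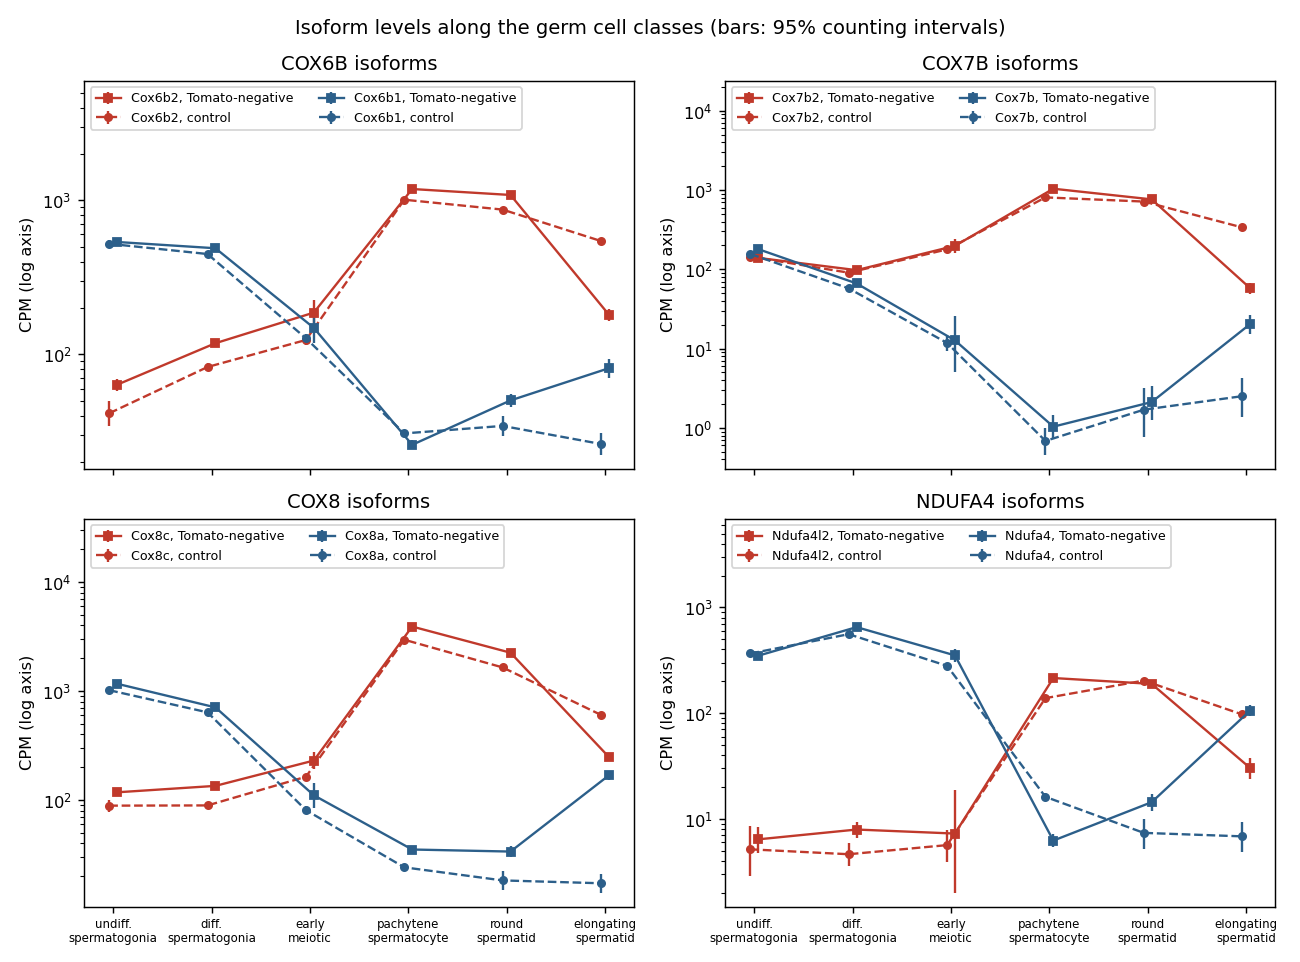
CPM on a log axis is plotted along 6 germ cell classes, from undifferentiated spermatogonia-like to elongating spermatid-like cells, for the COX6B, COX7B, COX8 and NDUFA4 isoforms, with 1 line per gene and library (Tomato-negative and control). The lines of the paired isoforms cross before or at the pachytene spermatocyte-like class in every panel and in both libraries, and Cox8c reaches the highest level at 3901 and 2953 CPM.

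The start regions of these isoforms are shown because their transcripts moved in opposite directions between the same classes. The sequences are from RefSeq on build GRCm38.p6, 250 bases before to 50 bases after the annotated start, written 5′ to 3′ on the strand of the gene. Capitals mark matches to a GC box (GGGCGG) or to the GABPA motif (CCGGAAG), on either strand, so that CTTCCGG is a GABPA match read on the other strand.
Cox6b2, chr7:4753045-4753344, minus strand, with a GC box match: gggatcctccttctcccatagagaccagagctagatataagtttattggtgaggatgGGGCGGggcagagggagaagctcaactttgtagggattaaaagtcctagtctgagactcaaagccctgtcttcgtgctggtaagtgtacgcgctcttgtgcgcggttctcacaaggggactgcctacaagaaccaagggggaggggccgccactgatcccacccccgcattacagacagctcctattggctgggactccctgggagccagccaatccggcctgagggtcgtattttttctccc
Cox6b1, chr7:30626065-30626364, minus strand, with a GABPA match: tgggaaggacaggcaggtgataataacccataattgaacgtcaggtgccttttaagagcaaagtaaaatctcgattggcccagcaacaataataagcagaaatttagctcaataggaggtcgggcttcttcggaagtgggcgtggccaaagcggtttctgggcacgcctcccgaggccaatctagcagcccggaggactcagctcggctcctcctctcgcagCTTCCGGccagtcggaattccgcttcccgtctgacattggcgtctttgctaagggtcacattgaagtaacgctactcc
Cox7b2, chr5:71548156-71548455, minus strand, with a GC box match: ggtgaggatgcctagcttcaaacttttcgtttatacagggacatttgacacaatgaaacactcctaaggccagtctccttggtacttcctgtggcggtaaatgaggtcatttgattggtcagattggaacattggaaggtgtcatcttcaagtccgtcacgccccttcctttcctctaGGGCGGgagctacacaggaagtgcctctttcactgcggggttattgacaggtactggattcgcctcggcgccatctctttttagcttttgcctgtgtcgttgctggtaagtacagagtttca
Cox7b, chrX:106015450-106015749, plus strand, with no match: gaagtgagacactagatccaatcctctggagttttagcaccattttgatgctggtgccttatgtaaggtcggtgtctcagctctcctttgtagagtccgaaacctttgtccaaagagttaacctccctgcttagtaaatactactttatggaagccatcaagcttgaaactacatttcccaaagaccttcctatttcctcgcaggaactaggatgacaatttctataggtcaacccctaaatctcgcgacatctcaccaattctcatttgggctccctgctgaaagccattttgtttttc
Cox8a, chr19:7217567-7217866, minus strand, with GABPA matches: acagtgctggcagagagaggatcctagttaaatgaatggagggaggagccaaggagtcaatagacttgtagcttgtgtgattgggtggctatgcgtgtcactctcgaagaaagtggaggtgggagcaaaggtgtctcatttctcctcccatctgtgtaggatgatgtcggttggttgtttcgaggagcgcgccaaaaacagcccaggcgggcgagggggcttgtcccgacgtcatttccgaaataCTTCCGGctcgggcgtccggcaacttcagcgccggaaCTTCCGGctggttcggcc
Among the 77 members with an entry, 20 (26.0%) held the NRF1 motif (GCGC and TGCGC with 1 base between them), beside 5.19% of 27025 genes, 21 (27.3%) held the GABPA motif, beside 9.93%, 37 (48.1%) held a GC box, beside 38.2%, and 4 (5.19%) held a CRE (TGACGTCA), beside 2.03%. Both strands were searched, and matches of different motifs overlapped in 1 of the 82 promoter entries of these members. NRF1 and GABPA are known as activators of nuclear respiratory genes. Of the testis isoforms shown, neither Cox6b2 nor Cox7b2 held NRF1, GABPA or CRE letters in this window, whereas Cox6b1 and Cox8a held the GABPA letters. Cox7b and Ndufa4, the partners of Cox7b2 and Ndufa4l2, held none of these letters either. Cox8c and Ndufa4l2 had no promoter entry, so the isoform pairs were not compared as a set. A match is a description of letters and not a binding site.

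Most of the remaining complex IV members changed less. Cox5a and Cox7a2 were 1.66-fold and 1.90-fold higher in Tomato-negative and 1.29-fold and 1.54-fold higher in control pachytene spermatocyte-like cells. Cox4i1, Cox5b, Cox6c and Cox7c stayed at ratios between 0.677 and 0.884 in both libraries, and Cox6a1 fell to 194 and 188 CPM, against 503 and 459 CPM in differentiating spermatogonia-like cells. Cox7a2l, which joins complexes III and IV in supercomplexes, was 1.31-fold and 1.32-fold higher. Cox7a1 was the exception. It had 0.244 and 0.101 CPM in pachytene spermatocyte-like cells (8 and 4 counts), against 11.8 and 7.27 CPM in differentiating spermatogonia-like cells, at ratios of 0.0207 (0.00884 to 0.0417) and 0.0140 (0.00373 to 0.0368). Cox4i2, Cox6a2 and Cox8b were at or below 1.15 CPM in each of the 6 germ cell classes of both libraries.

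Complex V was the complex with the lowest median. Its summed level was 4606 CPM in Tomato-negative pachytene spermatocyte-like cells, against 8059 CPM in differentiating spermatogonia-like cells, and 4558 against 6972 CPM in the control. Of 17 members, 2 were higher and 12 lower in the Tomato-negative library, and 2 higher and 9 lower in the control. With the median ratio set to 1 these counts were 5 and 6, and 5 and 5, and the median of complex V, at 0.21 and 0.20 on the log2 scale, was still the lowest of complexes I to V. The catalytic head subunit Atp5a1 had 172 CPM in pachytene spermatocyte-like and 516 CPM in differentiating spermatogonia-like cells of the Tomato-negative library, and 267 and 542 CPM in the control. Atp5mpl, a small membrane subunit, fell furthest of the abundant members, to 46.8 and 46.2 CPM, against 690 and 420 CPM, and stood at 353 and 148 CPM again in round spermatid-like cells. The c-ring genes Atp5g1 and Atp5g3 were lower, at ratios of 0.218 and 0.289 in the Tomato-negative library and 0.333 and 0.696 in the control, so that the fall of Atp5g3 in the control was under 1.5-fold. Atp5j, a stalk subunit, and Atp5s, coupling factor B, were higher in both libraries. Atp5s had 117 against 27.9 CPM and 93.3 against 23.4 CPM, and Atp5j had 787 against 477 CPM and 681 against 443 CPM.

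Among the assembly factors of complex I, Ndufaf3 stood apart. It had 18.7, 42, 118, 860, 383 and 92.0 CPM along the germ cell classes of the Tomato-negative library and 21.6, 45.8, 93.1, 875, 342 and 160 CPM in the control, so that it was 20.5-fold (19.0 to 22.0) and 19.1-fold (17.7 to 20.7) higher in pachytene spermatocyte-like than in differentiating spermatogonia-like cells. Ndufaf4, which acts with Ndufaf3 in complex I assembly, fell to 1.04 and 4.46 CPM, against 85.3 and 81.4 CPM. Ndufaf6 was at 0.213 and 1.34 CPM, against 18.8 and 20.7 CPM. Partners of 1 assembly step thus moved in opposite directions. In complex II assembly, Sdhaf4 was 2.45-fold and 1.91-fold higher and Sdhaf3 was lower, at ratios of 0.134 and 0.272. Over the 32 classes with at least 30 cells in the 3 libraries, the members whose log2 CPM followed that of Cox8c most closely were Cox6b2 (Pearson r = 0.87), Cox7b2 (0.83) and Ndufaf3 (0.80). These are descriptions over classes that share libraries, among 98 members.

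The 3 X-linked members fell together. The sex chromosomes are known to be silenced in pachytene spermatocytes. Cox7b (X, 106015700 to 106022450) is given above. Ndufb11 (X, 20615326 to 20617619) had 295, 76.4, 101, 2.50, 8.00 and 49.1 CPM in the Tomato-negative library and 299, 66.9, 76.4, 1.47, 8.11 and 7.18 CPM in the control. Ndufa1 (X, 37187588 to 37191163) first increased, with 60.1, 233, 815, 22.2, 18.2 and 77.8 CPM and 44.2, 129, 437, 17.5, 3.77 and 3.95 CPM. All 3 were at their lowest level in pachytene spermatocyte-like or round spermatid-like cells. Their median log2 ratio of pachytene spermatocyte-like over differentiating spermatogonia-like cells was -4.93 and -5.50, beside -5.37 over 601 and -6.02 over 548 X-linked genes, and -0.28 and -0.21 over the 92 autosomal members with counts in each library. In round spermatid-like over pachytene spermatocyte-like cells the median ratio of X-linked members was 1.05 and 1.36 on the log2 scale, beside 3.14 and 3.59 over all X-linked genes. Ndufa1 and Ndufb11 encode accessory subunits in the membrane arm of complex I.

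**Figure D3:**
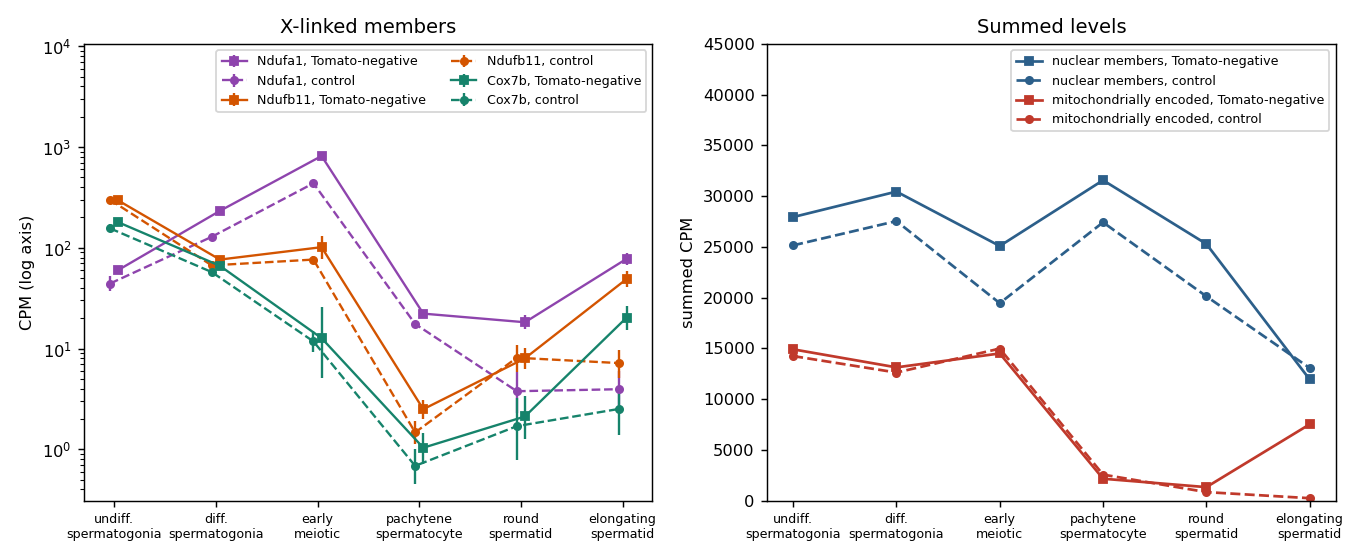
CPM of the 3 X-linked members on a log axis and the summed CPM of the nuclear members and of the 13 mitochondrially encoded subunits on a linear axis are plotted along 6 germ cell classes for the Tomato-negative and control libraries. The X-linked lines drop at the pachytene spermatocyte-like class, where the nuclear sum is 31577 and 27428 CPM and the mitochondrially encoded sum 2168 and 2573 CPM.

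Earlier steps moved fewer members. In differentiating over undifferentiated spermatogonia-like cells, 18 of 95 members were higher (23.8% of all genes) and 7 lower (25.3%) in the Tomato-negative library, and 21 higher (24.8%) and 7 lower (24.0%) in the control. Ndufa1 was 3.87-fold and 2.91-fold higher, Atp5f1, a stalk subunit, 2.87-fold and 2.65-fold, and the core subunit Ndufv2 2.16-fold and 2.29-fold. Ndufb11 (0.259 and 0.223), Ndufv3 (0.343 and 0.402), Cox7b (0.369 and 0.368) and Atp5g3 (0.528 and 0.508) were lower, so that X-linked members did not move as 1 group at this step. In early meiotic-like over differentiating spermatogonia-like cells, 11 of 95 members were higher (25.9%) and 25 lower (35.6%) in the Tomato-negative library, and 8 of 96 higher (26.7%) and 36 lower (36.1%) in the control. In the Tomato-negative library the split was 6 and 32 with the median ratio set to 1, a shift of 0.17. Ndufa1 was higher again, 3.51-fold and 3.40-fold. Cox8a, Cox6b1 and Ndufa11 were already lower at this step, at ratios of 0.156, 0.304 and 0.311 in the Tomato-negative library and 0.127, 0.284 and 0.247 in the control.

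In round spermatid-like over pachytene spermatocyte-like cells, 8 of 94 members were higher (34.4%) and 20 lower (31.2%) in the Tomato-negative library, and 5 of 95 higher (26.0%) and 39 lower (43.4%) in the control, where the split was 12 and 26 with the median ratio set to 1. The testis isoforms stayed high, with Cox6b2 at 1082 and 870 CPM and Cox8c at 2244 and 1644 CPM. Atp5mpl (7.56-fold and 3.19-fold) and Ndufb11 (3.20-fold and 5.51-fold) were higher, and Ndufc2 (0.363 and 0.237) and Sdhd (0.253 and 0.246) lower. In elongating over round spermatid-like cells, 12 of 93 members were higher (32.9%) and 62 lower (42.7%) in the Tomato-negative library, and 3 of 93 higher (25%) and 52 lower (48.4%) in the control. With the median ratio of genes counted in both classes set to 1, a shift of 0.57 on the log2 scale in the control, those counts in the control were 6 and 16. Ndufa13, a complex I subunit, was 3.24-fold and 3.46-fold higher in elongating spermatid-like cells, and Cox8c was 0.111 of its round spermatid-like level in the Tomato-negative library (248 against 2244 CPM).

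The Tomato-negative and control libraries resembled each other up to the round spermatid-like class. Neither held an undisturbed germ line. Haploid cells were depleted from the control, and Tomato+ germ cells from the Tomato-negative library, so the classes hold the cells left after these steps. Across the 101 members, log2 CPM correlated at 0.982 to 0.989 in the 5 classes from undifferentiated spermatogonia-like to round spermatid-like cells and at 0.887 in elongating spermatid-like cells, where 55 members differed by at least 1.5-fold, against 13 to 29 in the other classes. Genes are not independent replicates, so these are descriptions. The elongating spermatid-like class had a median of 3481 UMIs per cell in the Tomato-negative library and 27946 in the control, and the part of this depth gap in the difference was not tested. In the Tomato-negative library, Ndufa4 (105 CPM), Cox8a (168 CPM) and Cox7b (20.3 CPM) were higher in elongating than in round spermatid-like cells, which was not seen for Ndufa4 and Cox8a in the control, where the 3 genes stood at 6.82, 17.2 and 2.51 CPM. Sertoli markers (7 of 11 seen) summed to 2627 CPM in Tomato-negative elongating spermatid-like cells, against 174 CPM in the round spermatid-like cells of that library and 17.4 CPM in control elongating spermatid-like cells, and the mitochondrially encoded sum was 7531 against 1339 CPM between the Tomato-negative classes. The part of these transcripts in the levels of Ndufa4, Cox8a and Cox7b was not tested.

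Other genes of the pathway were taken from lists of carriers, assembly genes and regulators. In pachytene spermatocyte-like over differentiating spermatogonia-like cells, 12 of 12 mitochondrially encoded subunits with counts were lower in each library (59.1% and 53.9% of all genes), with medians of -2.47 and -2.16. Of 6 electron carriers, 1 was higher and 5 lower in each library. The carrier that was higher was Cyct, the testis cytochrome c, at 274 against 60.7 CPM in the Tomato-negative library and 367 against 49.5 CPM in the control. Cycs, the somatic cytochrome c, had 5.33 against 197 CPM and 5.20 against 197 CPM. Cytochrome c thus exchanged isoforms between the same 2 classes as complex IV. Whether both exchanges fell at the same step between these classes was not tested. The 3 adenine nucleotide carriers were lower in both libraries: Slc25a4 had 2.65 against 14.0 CPM in the Tomato-negative library, Slc25a5 2.29 against 8.71 CPM, and Slc25a31, the testis isoform, 123 against 287 CPM. Of 22 assembly genes of complexes III and IV, 5 were higher and 10 lower in the Tomato-negative library and 5 and 9 in the control, and of 11 regulators of mitochondrial genes with counts, 2 were higher and 7 lower, and 3 and 7. These shares are read against 28.8% and 32.5% of all genes higher and 59.1% and 53.9% lower, and the share of assembly genes that were lower is below that of all genes. Nrf1 had 3.57 against 54.8 CPM in the Tomato-negative library and 11.0 against 68.1 CPM in the control. Tfam, which packages mitochondrial DNA, was at 2.1 and 3.96 CPM in pachytene spermatocyte-like cells and at 993 and 378 CPM in elongating spermatid-like cells.

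Among somatic cells, the sum of the 101 genes differed by class. In the Tomato-negative library it was 45552 CPM in Leydig-like, 32481 in vascular smooth muscle-like, 25136 in Sertoli-like, 20382 in myoid-like, 20255 in endothelial-like, 14339 in Tcf21 stromal-like and 12448 CPM in immune-like cells. In cKO cells it was 28616 CPM in vascular smooth muscle-like, 27265 in Leydig-like, 16727 in myoid-like, 16260 in immune-like and 15863 CPM in Tcf21 stromal-like cells. In the control it was 30218 CPM in vascular smooth muscle-like, 17081 in myoid-like, 16480 in immune-like and 15493 CPM in Tcf21 stromal-like cells. Vascular smooth muscle-like cells stood above the myoid-like, stromal-like and immune-like classes in all 3 libraries. Both Leydig-like classes held Sertoli markers, 3334 CPM in cKO (8 of 11 seen) beside 5223 CPM of Leydig markers, and 5011 CPM in Tomato-negative cells (3 of 11 seen) beside 25614 CPM of Leydig markers. The Tomato-negative class had 30 cells with a median of 1416 UMIs. The control had 9 Leydig-like cells, which were not used. These held 9209 CPM of Sertoli markers (10 of 11 seen) and 1767 CPM of Leydig markers (5 of 8 seen), so their markers go against the name. They shared a cluster with the 196 cKO Leydig-like cells.

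Vascular smooth muscle-like cells were marked by the oxygen-sensitive isoforms. Cox4i2 (chromosome 2, 152754173 to 152765037), which takes the place of Cox4i1 in complex IV, had 427 CPM in cKO, 305 CPM in control and 157 CPM in Tomato-negative vascular smooth muscle-like cells. It was 425-fold (281 to 672) and 211-fold (101 to 530) higher there than in the summed other somatic classes of the cKO and Tomato-negative libraries, and at least 1 UMI was seen in 72.6% of 157 cKO cells, 53.8% of 39 control cells and 52.8% of 250 Tomato-negative cells, against 0.383% of 2087 cKO myoid-like cells. The median depth was 5369 UMIs in cKO vascular smooth muscle-like and 5681 in cKO myoid-like cells. In the control the ratio was 418 (135 to 2100), on 47 counts against 3. The log2 ratio in the Tomato-negative library, 7.62, was 9.19 without doublets and 6.17 at a clustering resolution of 0.6. Ndufa4l2 had 793 CPM in cKO, 481 CPM in control and 236 CPM in Tomato-negative vascular smooth muscle-like cells, 98.7-fold, 49.4-fold and 18.1-fold the level of the other somatic classes. The last ratio, 4.17 on the log2 scale, was 6.55 after subtraction of free RNA. Even there Cox4i2 supplied the smaller share of Cox4 counts, at 19.55% in cKO, 13.35% in control and 8.56% in Tomato-negative cells, whereas Ndufa4l2 supplied 64.5%, 49.7% and 32.8% of its pair. Ndufa4l2 therefore had 2 separate places of high level, pachytene and round spermatid-like germ cells and vascular smooth muscle-like cells, and Cox4i2 only the second.

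Many other members were also higher in vascular smooth muscle-like cells. In the cKO library 48 of 96 members were at least 1.5-fold higher than in the other somatic classes (20.6% of all genes) and 5 lower (30.4%), in the control 60 of 94 higher (24.8%) and 4 lower (32.0%), and in the Tomato-negative library 36 of 97 higher (15.8%) and 19 lower (52.6%). Setting the median ratio of genes counted in both to 1 gave 37 higher and 5 lower, 33 and 5, and 55 and 12. Atp5b, the catalytic subunit of ATP synthase, had 983 CPM in cKO, 1007 CPM in control and 1118 CPM in Tomato-negative vascular smooth muscle-like cells, and Sdhc, a membrane anchor of complex II, 198, 195 and 239 CPM.

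Leydig-like cells, the steroid makers of the testis, had 65 of 96 members higher (29.7%) and 4 lower (25.6%) in the cKO library and 64 of 97 higher (39.5%) and 4 lower (30.5%) in the Tomato-negative library. These counts turned to 27 and 4 and to 15 and 21 with the median ratio set to 1, which moved ratios by 0.24 and 0.73. Cox7a1, known as the muscle isoform of subunit VIIa, was the named member furthest above the other somatic classes, with 38.3 CPM (7.44-fold, 5.63 to 9.82) in cKO and 257 CPM (8.06-fold, 4.64 to 13.1, 17 counts) in Tomato-negative Leydig-like cells. Cox6a1 (2.74-fold and 5.20-fold), Uqcr10 (2.55-fold and 4.81-fold) and Ndufb8 (2.44-fold and 4.17-fold) followed in both libraries. Cox7a1 was also higher in Tomato-negative Sertoli-like cells, as given below, and the cKO library had no Sertoli-like class to compare with. Sertoli markers summed to 3334 CPM in cKO Leydig-like cells, and the part of Sertoli transcripts in their Cox7a1 level was not tested.

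In Sertoli-like cells of the Tomato-negative library, 31 of 97 members were higher than in the other somatic classes (46.4%) and 15 lower (27.2%), and 17 and 34 with the median ratio set to 1, a shift of 0.45. Sdhaf3, an assembly factor of complex II, had 108 CPM, against 10.7 CPM in the other classes (10.1-fold, 7.57 to 13.7). Cox5a had 747 against 241 CPM and Ndufaf4 81.3 against 25.8 CPM. Cox7a1 was 3.28-fold higher (47.4 against 14.4 CPM). Cox7b was lower, at 131 against 332 CPM, and Cox7b2 higher, at 59.8 against 18.4 CPM, in a class whose haploid transcripts summed to 3541 CPM. The part of those transcripts in the Cox7b2 level was not tested.

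Myoid-like cells stood out by a testis isoform. Cox6b2 had 84.1 CPM in cKO, 113 CPM in control and 152 CPM in Tomato-negative myoid-like cells, 5.54-fold, 1.83-fold and 1.90-fold the level of the other somatic classes. In the cKO library, where haploid transcripts were nearly absent, its level in the other somatic classes was 12.8 to 25.8 CPM, and Cox8c, the most abundant testis isoform of spermatocytes, was at 2.30 CPM in myoid-like cells. Cox6b2 in cKO myoid-like cells was thus not accompanied by Cox8c. Elsewhere in these cells few members stood above the rest, with 1 of 96 higher (16.2%) and 8 lower (25.5%) in cKO, 4 of 94 higher (24.2%) and 6 lower (21.3%) in control and 2 of 97 higher (19.0%) and 26 lower (45.2%) in Tomato-negative cells. Tcf21 stromal-like cells had 1 member higher (11.2%) and 9 lower (26.2%) in cKO, 2 higher (18.2%) and 12 lower (26.6%) in control, and 0 higher (18.2%) and 67 lower (46.6%) in Tomato-negative cells. Immune-like cells had 2 higher (19.2%) and 25 lower (45.1%), 7 higher (24.9%) and 15 lower (39.7%), and 1 higher (15.3%) and 79 lower (62.6%). Cox7a2l was the member that Tomato-negative endothelial-like cells, with 3 of 97 members higher (19.3%) and 34 lower (45.4%), and immune-like cells held above the rest, at 494 and 433 CPM.

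**Figure D4:**
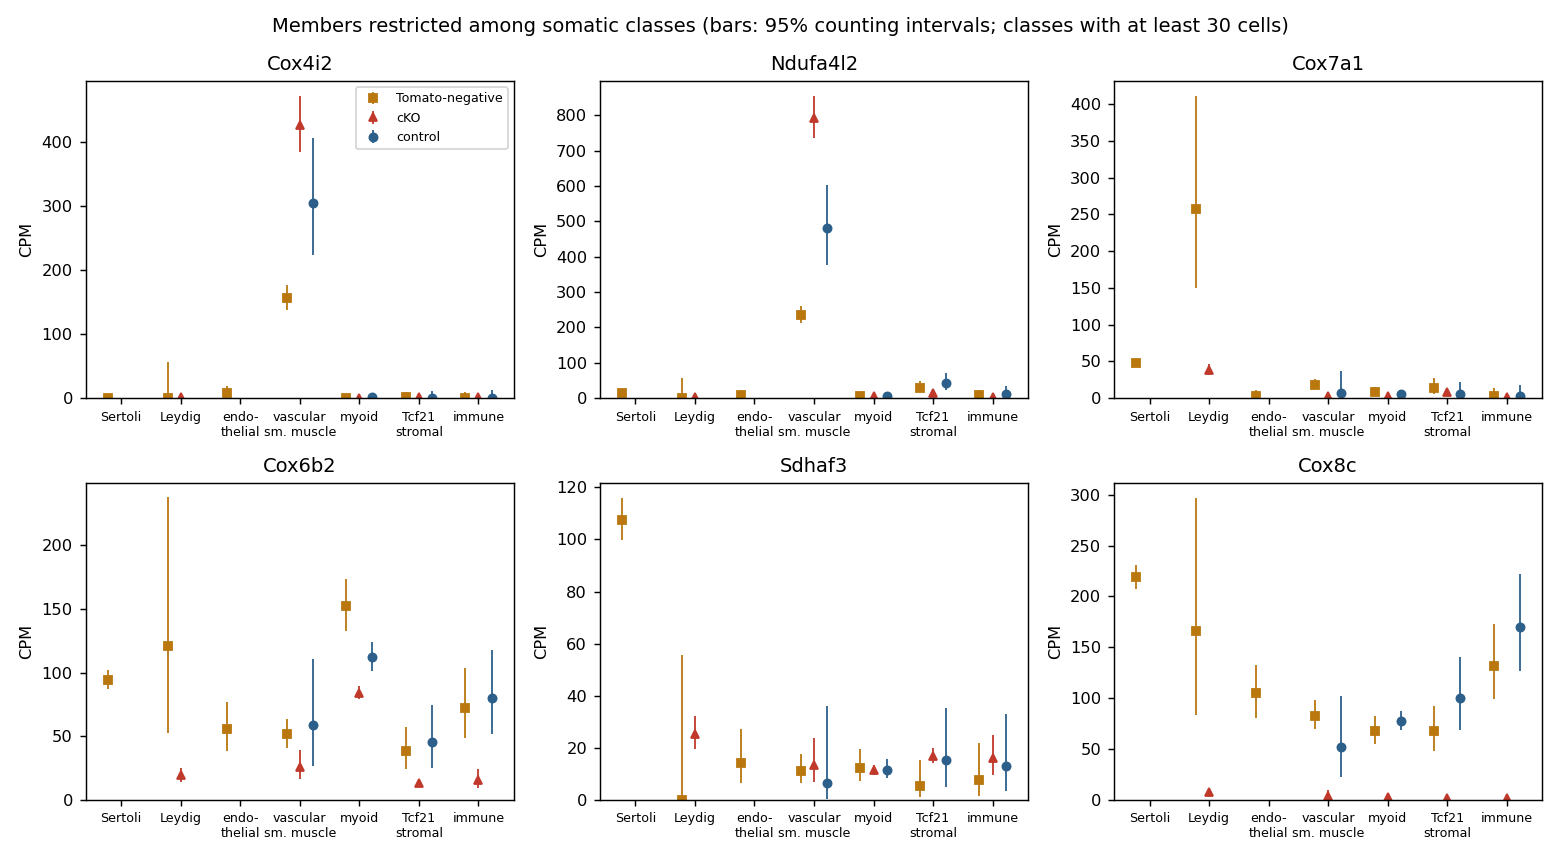
CPM on a linear axis, with exact 95% Poisson intervals, is plotted for Cox4i2, Ndufa4l2, Cox7a1, Cox6b2, Sdhaf3 and Cox8c by somatic class for the Tomato-negative, cKO and control libraries, in classes of at least 30 cells. Cox4i2 and Ndufa4l2 peak in vascular smooth muscle-like cells of every library, and Cox8c is between 1.68 and 7.66 CPM in cKO classes and at least 52.0 CPM in control ones.

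The comparison of cKO with control asks whether the loss of Scf from Sertoli cells moves these genes in the cells that remain. The cKO library had 15 pachytene spermatocyte-like, 7 round spermatid-like and 11 elongating spermatid-like cells, too few to compare. The isoform shares in its 15 pachytene spermatocyte-like cells are given as a description: 97.96% Cox6b2, 100% Cox7b2, 98.93% Cox8c and 95.88% Ndufa4l2 of each pair.

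In undifferentiated spermatogonia-like cells (781 cKO and 274 control cells) few members differed under the limits on cells used here. In cKO cells 3 of 95 were at least 1.5-fold higher, where 7.35% of all genes were, and 4 lower, where 10.4% were, with a median log2 ratio of 0.05, beside -0.04 over all genes. These 7 members became 11 at a limit of 3500 genes, 18 without an upper limit and 20 without a mitochondrial limit. Ndufab1, the acyl carrier protein of complex I, had 288 CPM in cKO and 189 CPM in control cells (1.52-fold, 1.39 to 1.67). Cox6b2 had 14.2 CPM in cKO and 41.5 CPM in control cells, Cox8c 37.2 and 88.7 CPM, and Ndufaf3 8.47 and 21.6 CPM. These 3 are members that peak in pachytene spermatocyte-like cells, and haploid transcripts summed to 21.2 CPM in cKO and 201 CPM in control cells of this class. After subtraction of the expected free RNA their ratios turned round, to log2 values of 0.13, 1.97 and 5.39. The subtraction left no count negative, and 0.5 was added for log2 ratios. The size of the largest value depends on this floor and is not a measured fold.

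In differentiating spermatogonia-like cells (1371 cKO and 1837 control cells) more members were past 1.5-fold, and the cells placed in the class differed. The undifferentiated markers summed to 1076 CPM in cKO and 246 CPM in control cells of this class, and the differentiating markers to 671 and 1178 CPM. In cKO undifferentiated spermatogonia-like cells these 2 sums were 1386 and 586 CPM. By these markers the cKO cells of the class lay nearer to those cells than to the control cells of the class, so unlike stages are compared. The paper reports that differentiating spermatogonia were depleted in these cKO testes. Of the clusters of this class, 1 held 47 cKO and 756 control cells. Of 96 members, 8 were higher in cKO cells (26.7% of all genes) and 18 lower (28.3%), with medians of -0.08 and -0.07, and 11 and 15 with the median ratio set to 1. The 26 members became 6 without an upper limit on genes and 15 without a mitochondrial limit, both fewer than in undifferentiated spermatogonia-like cells under the same limits, so that the order of the classes turned with these choices. Ndufb11 had 271 CPM in cKO and 66.9 CPM in control cells (4.04-fold, 3.78 to 4.33), Atp5g3 458 and 186 CPM, Ndufv3 128 and 52.1 CPM, Atp5g1 1206 and 544 CPM, and Cox7b 115 and 57.4 CPM. Lower in cKO cells were Ndufaf3 (7.89 against 45.8 CPM), Cox6b2 (19.4 against 82.8 CPM), Ndufa1 (40.7 against 129 CPM), Cox8c (30.7 against 89.2 CPM) and Uqcrc2 (75.0 against 176 CPM).

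Ndufb11, Ndufv3, Cox7b and Atp5g3 are among the named members that were lower, and Ndufa1 and Uqcrc2 among those that were higher, in differentiating than in undifferentiated spermatogonia-like cells of the control. In cKO cells of the differentiating class, Ndufb11 at 271 CPM and Ndufa1 at 40.7 CPM lay nearer to the control undifferentiated levels of 299 and 44.2 CPM. The 2 comparisons share the control differentiating spermatogonia-like cells. All 10 members named for this class kept their direction and stayed past 1.5-fold when only the cluster with many cells of both libraries (1324 cKO and 1081 control cells) was used, and when both spermatogonial classes were summed. That cluster held 1324 of the 1371 cKO cells of the class. The summed classes took in 781 cKO and 274 control undifferentiated spermatogonia-like cells. Neither choice matched the stages of the 2 libraries, so neither can tell a stage difference from a difference between libraries. Without an upper limit on genes 10 kept their direction and 3 stayed past 1.5-fold, and without a mitochondrial limit 10 and 7 did. Haploid transcripts summed to 11.8 CPM in cKO and 227 CPM in control cells of this class. After subtraction of the expected free RNA, Cox8c turned to a log2 ratio of 9.70, whereas Cox6b2 and Ndufaf3 remained lower in cKO, at -1.45 each. The size of the Cox8c value depends on the floor of the subtraction and is not a measured fold. The adenine nucleotide carriers were higher in the same cells, with Slc25a4 at 57.7 CPM in cKO and 13.0 CPM in control, Slc25a5 at 62.6 and 8.76 CPM, and Slc25a31 at 546 and 333 CPM.

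In early meiotic-like cells (101 cKO and 1276 control cells), 21 of 94 members were higher in cKO (20.1%) and 7 lower (20.4%), with a median of 0.22, beside 0.01 over all genes, and 16 and 9 with the median ratio set to 1. Ndufs8 had 187 CPM in cKO and 64.6 CPM in control cells (2.90-fold, 2.35 to 3.55), Cox6b1 307 and 127 CPM, Cox8a 198 and 80.7 CPM and Atp5g1 382 and 174 CPM. Cox8c had 10.3 CPM in cKO cells (7 counts) and 163 CPM in control cells, and Cox6b2 42.8 and 124 CPM. Haploid transcripts summed to 8.85 CPM in cKO and 383 CPM in control cells, and after subtraction of free RNA the log2 ratios were -0.24 for Cox8c and -0.76 for Cox6b2, beside -3.89 and -1.51. The stage markers of the class differed as well. Early meiotic markers summed to 8582 CPM in cKO and 12758 CPM in control cells, pachytene markers to 320 and 862 CPM and undifferentiated markers to 105 and 32.3 CPM, and their part in the levels of Ndufs8, Cox6b1 and Cox8a was not tested. Atp5c1 was 2.49-fold higher in cKO cells, and this direction turned under 4 other ways of choosing or clustering the cells. The class rests on 101 cKO cells, and its 28 members past 1.5-fold became 14 to 18 under 5 of those alternatives.

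In somatic classes a smaller share of members than of all genes was past 1.5-fold between cKO and control. In vascular smooth muscle-like cells 3 of 86 members were higher in cKO (16.8%) and 6 lower (16.9%), in myoid-like cells 0 of 95 higher (9.07%) and 8 lower (16.3%), in Tcf21 stromal-like cells 6 of 95 higher (16.4%) and 8 lower (23.2%), and in immune-like cells 2 of 87 higher (19.8%) and 9 lower (22.1%). Each share is below that of all genes. Genes with as few as 20 counts enter both shares, and the control vascular smooth muscle-like class had 39 cells. The shares were not matched for level, so they cannot show whether members differed less than other genes of like level. With at least 100 counts, the members past 1.5-fold were 5 in vascular smooth muscle-like, 4 in myoid-like and 4 in immune-like cells. The 11 members of immune-like cells became 18 to 20 under 3 alternatives, and the 9 of vascular smooth muscle-like cells 14 with each library clustered alone. Setting the median ratio to 1, a shift of 0.10 to 0.19 on the log2 scale, gave 8 and 5, 1 and 5, 7 and 6, and 9 and 6. Ndufa4l2 had 793 CPM in cKO and 481 CPM in control vascular smooth muscle-like cells (1.65-fold, 1.3 to 2.13), and Cox4i2 427 and 305 CPM (1.40-fold, 1.03 to 1.94), under the 1.5-fold limit.

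Cox8c was far lower in cKO somatic classes, with 2.30 CPM in cKO and 77.6 CPM in control myoid-like cells (ratio 0.0296, 0.0191 to 0.0440), and Ndufaf3 had 24.3 and 43.9 CPM there. In Tcf21 stromal-like cells Cox6b2 had 12.8 CPM in cKO and 45.3 CPM in control cells (15 counts). The haploid transcripts moved with these members, at 5.87 CPM in cKO and 302 CPM in control myoid-like cells and at 4.92 and 447 CPM in Tcf21 stromal-like cells. After subtraction of free RNA the directions of Ndufaf3 in myoid-like cells (log2 ratio 1.42) and of Cox6b2 in Tcf21 stromal-like cells (2.92) turned. The size of the Cox6b2 value depends on the floor of the subtraction. Cox5a (153 against 231 CPM) and Atp5k (65.6 against 103 CPM) were lower in cKO myoid-like cells. After subtraction of free RNA the log2 ratio of Cox5a was -0.30, beside -0.60, and no longer past 1.5-fold. That of Atp5k was -0.59, beside -0.65. Myoid-like cells lay almost wholly in different clusters in the 2 libraries (with 2080 cKO and 26 control cells, and with 7 and 632). In immune-like cells Ndufb11 was 1.78-fold higher in cKO (233 against 131 CPM) and Cox5b was lower (250 against 368 CPM), under the 1.5-fold limit. Atp5k and Ndufa5 were lower past that limit, at log2 ratios of -0.78 and -0.76. After subtraction of free RNA these were -0.57 and -0.55, short of the limit, and Ndufb11 was at 0.64. Of the 306 cKO immune-like cells, 54 and 32 lay in clusters that held 1 and 2 control cells, and Tcf21 stromal markers summed to 1079 CPM in cKO and 118 CPM in control immune-like cells. The part of these cells and markers in the immune-like values was not tested.

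**Figure D5:**
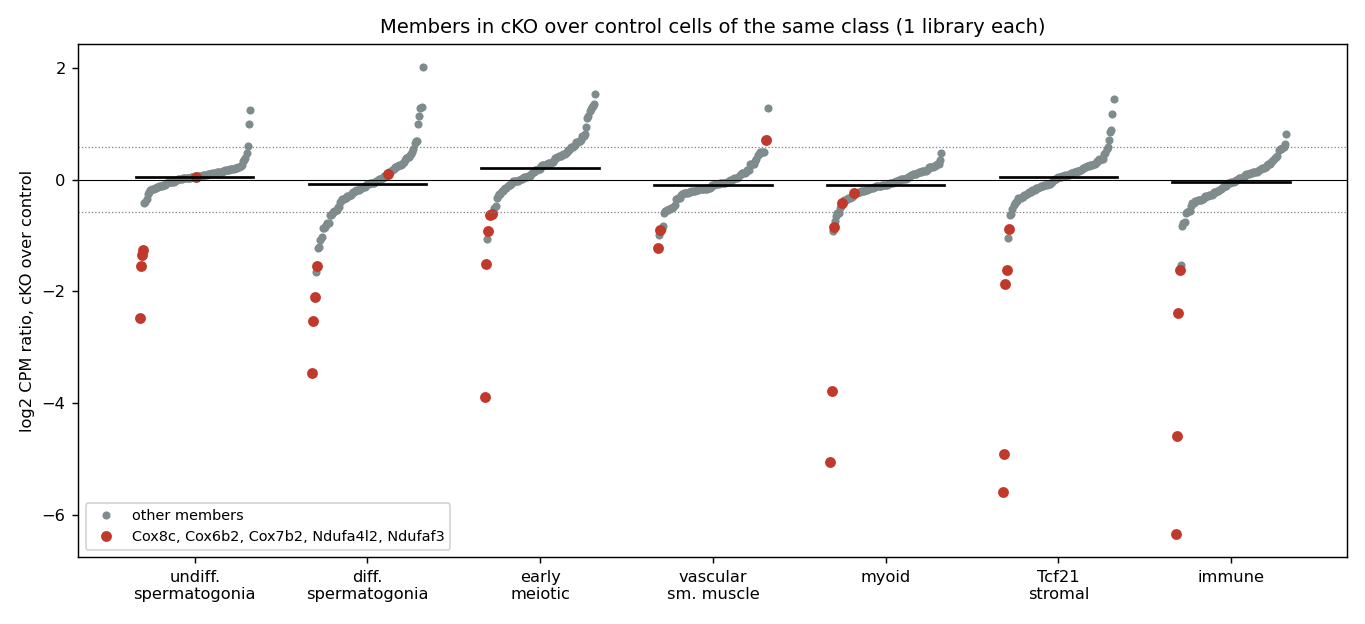
The log2 ratio of CPM in cKO over control is plotted for each member (points) in the 7 classes that hold 30 or more cells of each library, with Cox8c, Cox6b2, Cox7b2, Ndufa4l2 and Ndufaf3 in red. Most members lie within 1.5-fold of no change in the undifferentiated spermatogonia-like and somatic classes, and Cox8c is among the lowest points in each germ cell class and in myoid-like cells.

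Several of the remaining members had low levels. Cox8b was listed in the merged table alone and had 3 counts over its Tomato-negative somatic classes, Cox6a2 had at most 6 counts in any somatic class, and the pseudogenes Cox6c2, Ndufa11b and Ndufs6b stayed at or below 4.49 CPM in germ cell classes of the Tomato-negative and control libraries. Ndufb4c, whose parent is Ndufb4, was 2.54-fold and 1.56-fold higher in pachytene spermatocyte-like than in differentiating spermatogonia-like cells, at 7.44 and 4.23 CPM, while Ndufb4 was 1.92-fold and 1.69-fold higher. Reads of the pair cannot be told apart with certainty.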

How the data were processed

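The deposited tables hold raw UMI counts per gene and cell, which the authors made with Cell Ranger 2.1.1 against GRCm38. Cells outside 200 to 7500 detected genes, or with over 10% mitochondrial counts, were removed. The planned limit was 3500 detected genes, as a reading of a stated threshold on unique counts. It left no pachytene class in the control, so the limit was changed after the files were seen. Counts were clustered in Seurat 5.3.0 (R 4.3.3) on 2000 variable genes without members and mitochondrially encoded genes, with integration of control and cKO, and somatic and germ cells were clustered again. A class needed 3 markers, each in at least 10% of cells. Doublets were called with scanpy 1.11.5. Counts were summed per class and library (Python 3.11.15, scipy 1.17.1), and no test across samples was run. Of the 14039, 6264 and 7252 deposited cells (merged, control, cKO), 5087, 5976 and 7018 were used. The cells with names from other libraries in the merged table were left out, and 706 Tomato-negative germ cells led by Stra8 and the unnamed clusters enter no comparison.

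Comparisons took classes of at least 30 cells and genes with at least 20 counts over both, with 0.5 added for log2 ratios. Named members are all isoform families, X-linked members and, per comparison, the 5 highest and 5 lowest with at least 100 counts, ordered by the interval end nearest to no change, and those whose pattern is most like Cox8c, Cox4i2 or Ndufa4l2. Others, such as Sdhb, Uqcr11, Cox5a, Atp5a1 and Atp5j, illustrate a complex and were chosen after their values were seen. A further member enters the counts and sums and its own values are not reported here. The members and lists were chosen with earlier results of these data known. Ratios were tested on simulated counts. Alternatives were other limits on cells, clusterings, scalings, count minimums, a 2-fold limit, removal of doublets and subtraction of free RNA.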

Additional observations from a re-analysis of the deposited data

How the results depend on the processing

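With a limit of 3500 genes the Tomato-negative library kept 34 pachytene spermatocyte-like cells, the summed level of members there was 23915 CPM (31577 CPM in the report), the share of the testis isoforms of COX6B, COX7B and COX8 was 98.3%, and 13 members were higher in pachytene spermatocyte-like over differentiating spermatogonia-like cells. The control had no such class under that limit. Without an upper limit, without doublets, as a mean over cells and scaled without mitochondrially encoded counts, the sum was 30996, 31667, 30607 and 31677 CPM in the Tomato-negative library and 27648, 27511, 27495 and 27523 CPM in the control. Without an upper limit, without doublets, as a mean over cells and thinned to 1000 UMIs, the testis isoform share was 98.8%, 99.1%, 98.8% and 98.5% in the Tomato-negative library and 98.7%, 98.9%, 98.7% and 98.9% in the control. With the median ratio of all genes set to 1, 53 members were higher and 22 lower in the Tomato-negative library and 52 and 19 in the control, and at 2-fold 13 and 9 were higher in pachytene spermatocyte-like over differentiating spermatogonia-like cells.

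For cKO over control, the members past the limit in undifferentiated spermatogonia-like cells were 11 at 3500 genes, 18 without an upper limit, 20 without a mitochondrial limit and 4 at 100 counts, beside 7. In differentiating spermatogonia-like cells they were 6 without an upper limit, 15 without a mitochondrial limit and 13 at 2-fold, beside 26. In early meiotic-like cells they were 14, 15 and 16 under those 3 limits on cells, 14 with members used for clustering, 18 at resolution 0.6 and 11 at 2-fold, beside 28. In vascular smooth muscle-like cells they were 14 with each library clustered alone, 5 at 100 counts and 2 at 2-fold, beside 9, and in myoid-like cells 4 and 2 at 100 counts and 2-fold, beside 8. In Tcf21 stromal-like cells they were 7 at 2-fold, beside 14, and in immune-like cells 19 without an upper limit, 18 with members used for clustering, 20 as a mean over cells, 4 at 100 counts and 5 at 2-fold, beside 11.

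The log2 ratio of Cox4i2 in Tomato-negative vascular smooth muscle-like cells over other somatic classes was 9.19 without doublets and 6.17 at resolution 0.6, beside 7.62, and that of Ndufa4l2 was 6.55 after subtraction of free RNA, beside 4.17. Directions turned for Ndufaf3 at 3500 genes, to -0.072 in differentiating over undifferentiated spermatogonia-like and -0.10 in early meiotic-like over differentiating spermatogonia-like cells of the Tomato-negative library. Subtraction of free RNA turned cKO over control in undifferentiated spermatogonia-like cells (Cox6b2 0.13, Cox8c 1.97, Ndufaf3 5.39), differentiating spermatogonia-like cells (Cox8c 9.70), myoid-like cells (Ndufaf3 1.42) and Tcf21 stromal-like cells (Cox6b2 2.92), and Cox8c in Tomato-negative vascular smooth muscle-like over other somatic classes (2.04). Counts were not allowed to become negative by subtraction, so the sizes of the largest of these values depend on that floor. Atp5c1 in early meiotic-like cKO over control turned to -0.31 without an upper limit, -0.31 without a mitochondrial limit, -0.16 with members used for clustering and -0.22 at resolution 0.6, and Ndufa4l2 in cKO Tcf21 stromal-like over other somatic classes to 1.64 without a mitochondrial limit. The cause of these moves was not tested. Over all named ratios past 1.5-fold, 245 of 245 kept their direction without doublets, as a mean over cells and with the median ratio set to 1, 185 of 187 at 3500 genes, 228 of 229 without an upper limit and 234 of 241 after subtraction of free RNA. The limit of 7500 genes, the shared differentiating cluster taken alone and the sum of both spermatogonial classes were chosen after seeing the data. Under the last pair 10 of 10 named members kept their direction, but neither choice matched the stages of the 2 libraries. No paired analysis was possible because each condition is 1 library. Comparisons of Leydig-like and early meiotic-like cells rest on few cells in at least 1 library, and differences between cKO and control cannot be told apart from differences between libraries.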
